A study of Mus musculus with 4 samples.

Results

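The H2 family is the set of genes of the mouse major histocompatibility complex (MHC), and it was followed here in RNA-seq of whole pancreas from E18.5 embryos. Members were the genes of the count table whose symbol begins with H2-, together with *B2m*, *Tap1*, *Tap2*, *Tapbp*, *Psmb8*, *Psmb9*, *Cd74* and *Ciita*. They numbered 51 of the 24391 genes in the table. They comprised 3 classical class I genes, 29 non-classical class I genes, 12 class II genes, 6 genes of the class I light chain and peptide loading, and *H2-Ke6*, which carries the H2- prefix for its position and encodes a steroid dehydrogenase.

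The study asked how loss of REST, a repressor of neuronal and endocrine genes, alters the embryonic pancreas. The *Rest* pKO embryos (Pdx1Cre RESTLoxP/LoxP) lose exon 4 of *Rest* in cells that have expressed *Pdx1-Cre*, a driver of the pancreatic epithelium that is not expected to act in leukocytes, endothelium or mesenchyme. Controls (Pdx1Cre RESTwt) carried the same *Pdx1-Cre* transgene with unaltered *Rest*, and all embryos were of E18.5 and of a mixed background with C57BL/6. There were 2 libraries per genotype, named below *Rest* pKO 1, *Rest* pKO 2, control 1 and control 2, and the methods speak of 3 pancreas per genotype without saying which these are. The H2 haplotype of each embryo is not given in the labels. Library totals were 20738162 and 24134100 counts in *Rest* pKO and 16936759 and 18644088 counts in control. Replicates of a genotype differed by more than counting noise, with a chi-square per degree of freedom of 64.9 in *Rest* pKO and 23.2 in control. *Rest* itself was at 12.2 and 9.16 CPM in *Rest* pKO, against 14.2 and 15.7 CPM in control, so the genotypes did not overlap (log2 fold change −0.49, standard error 0.23). Counts are of whole pancreas, so that fewer cells of a type and less RNA per cell cannot be told apart. A gene is said to be called where its adjusted p was under 0.05 in edgeR, or in another fit where one is named, and genotypes overlap unless both libraries of one lie beyond both of the other.

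MHC class I molecules are carried by nearly all nucleated cells. Each pairs a heavy chain from an H2 gene with beta-2-microglobulin and displays peptides that the proteasome cuts in the cytosol and the TAP transporter moves into the endoplasmic reticulum. Class II molecules are made mainly by dendritic cells, B cells and macrophages under the co-activator CIITA, and display peptides taken up from outside the cell. Class I heavy chain genes are switched on through a promoter-proximal element bound by NF-kappa B factors and a neighbouring element bound by interferon regulatory factors, and they differ between mouse strains more than most genes do.

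The promoters of the class I heavy chain genes *H2-K1*, *H2-D1* and *H2-Q4* are shown because *H2-K1* was the member called lower in *Rest* pKO and the other two have promoters that align with its own, and those of *B2m* and *H2-Aa* because they stand for the light chain and for class II. Each sequence is from RefSeq on GRCm38.p6 and runs from 250 bases before to 50 bases after the first listed transcript start. Capitals mark a kappa B match (GGGATTNCC), an interferon consensus match (GTTTCACTT) and CCAAT, each searched on both strands and with no overlap between matches in these sequences. On GRCm38.p6 the *H2-K1* sequence is chr17:34000298-34000597 on the minus strand, *H2-D1* is chr17:35262844-35263143 on the plus strand and *H2-Q4* is chr17:35379367-35379666 on the plus strand. The *B2m* sequence is chr2:122147437-122147736 on the plus strand, and that of *H2-Aa* is chr17:34287774-34288073 on the minus strand.
H2-K1: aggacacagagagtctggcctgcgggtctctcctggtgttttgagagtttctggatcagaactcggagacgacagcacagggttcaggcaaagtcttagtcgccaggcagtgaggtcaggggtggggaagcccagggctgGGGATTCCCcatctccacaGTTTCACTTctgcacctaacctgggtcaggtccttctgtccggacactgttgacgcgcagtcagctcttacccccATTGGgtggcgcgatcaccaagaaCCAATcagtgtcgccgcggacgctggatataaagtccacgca
H2-D1: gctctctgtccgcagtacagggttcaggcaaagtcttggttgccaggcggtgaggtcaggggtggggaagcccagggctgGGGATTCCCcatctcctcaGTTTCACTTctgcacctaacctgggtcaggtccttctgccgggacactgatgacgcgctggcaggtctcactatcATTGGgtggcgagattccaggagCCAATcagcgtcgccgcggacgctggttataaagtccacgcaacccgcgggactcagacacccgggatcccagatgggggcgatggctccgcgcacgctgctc
H2-Q4: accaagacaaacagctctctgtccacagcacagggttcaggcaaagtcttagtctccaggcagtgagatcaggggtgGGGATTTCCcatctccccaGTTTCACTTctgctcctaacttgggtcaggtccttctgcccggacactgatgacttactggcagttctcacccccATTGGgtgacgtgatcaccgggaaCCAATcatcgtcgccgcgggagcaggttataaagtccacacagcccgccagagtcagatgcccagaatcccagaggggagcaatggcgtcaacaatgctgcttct
B2m: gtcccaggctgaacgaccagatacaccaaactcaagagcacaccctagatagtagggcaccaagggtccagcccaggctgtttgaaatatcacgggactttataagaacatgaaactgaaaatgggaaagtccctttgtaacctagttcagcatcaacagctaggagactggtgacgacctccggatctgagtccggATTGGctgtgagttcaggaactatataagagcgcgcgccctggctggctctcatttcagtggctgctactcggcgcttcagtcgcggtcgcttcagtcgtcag
H2-Aa: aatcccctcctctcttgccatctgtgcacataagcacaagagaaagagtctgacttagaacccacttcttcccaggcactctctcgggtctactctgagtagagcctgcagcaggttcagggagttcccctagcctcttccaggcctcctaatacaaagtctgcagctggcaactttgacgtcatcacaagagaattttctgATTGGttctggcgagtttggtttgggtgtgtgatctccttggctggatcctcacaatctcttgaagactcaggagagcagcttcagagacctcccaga

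In *H2-K1*, *H2-D1* and *H2-Q4* the kappa B match is followed closely by the interferon match and then by a CCAAT pair in opposite orientations. The kappa B match begins 110 bases before the listed start in *H2-K1*, 170 bases in *H2-D1* and 173 bases in *H2-Q4*, as the listed starts lie at different points of an otherwise alignable sequence. Over the aligned stretch, *H2-D1* matched *H2-K1* at 211 of 239 bases (88.3%) and *H2-Q4* matched it at 196 of 230 bases (85.2%). *H2-Q7* (86.6%), *H2-Q10* (84.8%) and *H2-Q6* (83.5%) aligned about as well and are not shown. Among these, *H2-Q10* held the interferon letters but neither the kappa B letters nor CCAAT. *H2-Q6* and *H2-Q7* held each motif and had no count in any library. Of the 36 members with a promoter in the table, 5 held the kappa B letters (*H2-K1*, *H2-D1*, *H2-Q4*, *H2-Q6* and *H2-Q7*), against 0.938% of 32851 listed promoters. The interferon letters were in 9 members, against 0.399% of all promoters, and CCAAT in 31 members, against 37.4% of all promoters. Members were counted by their first listed promoter, whereas every listed promoter entered these shares. The 5 promoters with the kappa B letters are *H2-K1* and those that align with it, so their matches are not independent and no enrichment is read from them. No class II, light chain or loading promoter held the kappa B or interferon letters in this window. A match in these letters is not a measurement of binding. Only these exact letters were searched, so other forms of either element would be missed. A promoter without the letters may therefore still hold such an element.

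Classical class I genes encode the heavy chains that present peptides to CD8 T cells. *H2-K1* had 239 and 297 counts in *Rest* pKO 1 and 2, against 1223 and 2302 counts in control 1 and 2. Scaled to library size, this was 11.1 and 13.5 CPM in *Rest* pKO, against 72.8 and 116.1 CPM in control. The *Rest* pKO libraries were far lower than either control, and closer to each other than the controls were. The means were 12.3 ± 1.73 CPM in *Rest* pKO and 94.5 ± 30.6 CPM in control (SD, n = 2 each), a log2 fold change of −2.94 (standard error 0.27). *H2-K1* lies at chr17:34132962-34137278 on the minus strand of mm9, and of 2113 stretches of 100 bases of its exons, 96.8% occur nowhere else in that genome. This share does not cover reads lost from alleles that differ from mm9, which was not tested.

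*H2-D1*, the other classical heavy chain with counts, lies at chr17:35399675-35404444 on the plus strand of mm9. It was at 10.25 and 13.3 CPM in *Rest* pKO, against 16.4 and 19.4 CPM in control. The genotypes did not overlap, but the gap was narrow (log2 fold change −0.61, standard error 0.22). *H2-L*, a classical gene that C57BL/6 mice lack, had no count in any library. The class sum was 21.3 and 26.8 CPM in *Rest* pKO, against 89.2 and 135.5 CPM in control, and *H2-K1* made up most of that gap.

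The balance between both heavy chains differed more between genotypes than between replicates. *H2-K1* took 52.0% (95% Wilson interval 47.4 to 56.5) and 50.5% (46.5 to 54.5) of the counts of both genes in *Rest* pKO 1 and 2. In control 1 and 2 it took 81.6% (79.5 to 83.5) and 85.7% (84.3 to 87.0). The intervals cover counting error only, and this share does not depend on how the libraries were scaled. The *Rest* pKO libraries thus held about as many *H2-K1* as *H2-D1* counts, with ratios of 1.08 and 1.02, against 4.43 and 5.99 in control. Among all class I heavy chain counts *H2-K1* took 27.6% and 27.1% in *Rest* pKO, against 63.4% and 71.8% in control.

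**Figure D1:**
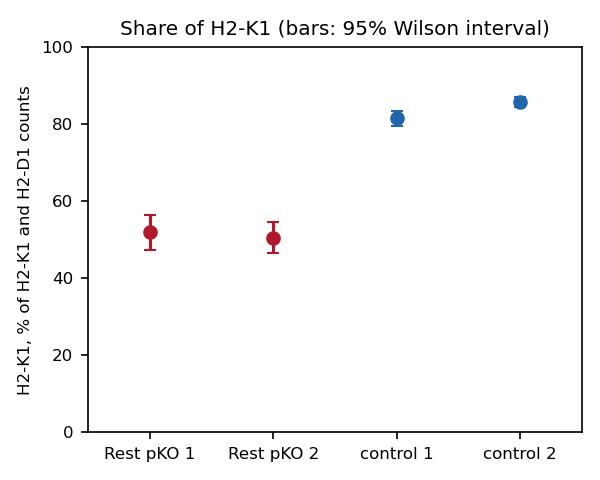
Share of *H2-K1* among *H2-K1* and *H2-D1* counts (y axis, %) in each library (x axis), with 95% Wilson intervals as bars. Both *Rest* pKO libraries sit at 52.0% and 50.5%, and the controls at 81.6% and 85.7%.

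Per kilobase of exon, the scale on which levels of different genes can be set side by side, *H2-K1* had a mean level of 4.72 CPM per kb in *Rest* pKO and 36.2 CPM per kb in control. *H2-D1* had 4.54 CPM per kb in *Rest* pKO and 6.92 CPM per kb in control. On this scale *H2-K1* ranked next to *B2m* among the members in control, and below *B2m*, *H2-Ke6* and *Tapbp* in *Rest* pKO. *B2m* had 111 CPM per kb in *Rest* pKO and 137 CPM per kb in control. *Tapbp* had 19.6 CPM per kb in *Rest* pKO and 19.4 CPM per kb in control.

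**Figure D2:**
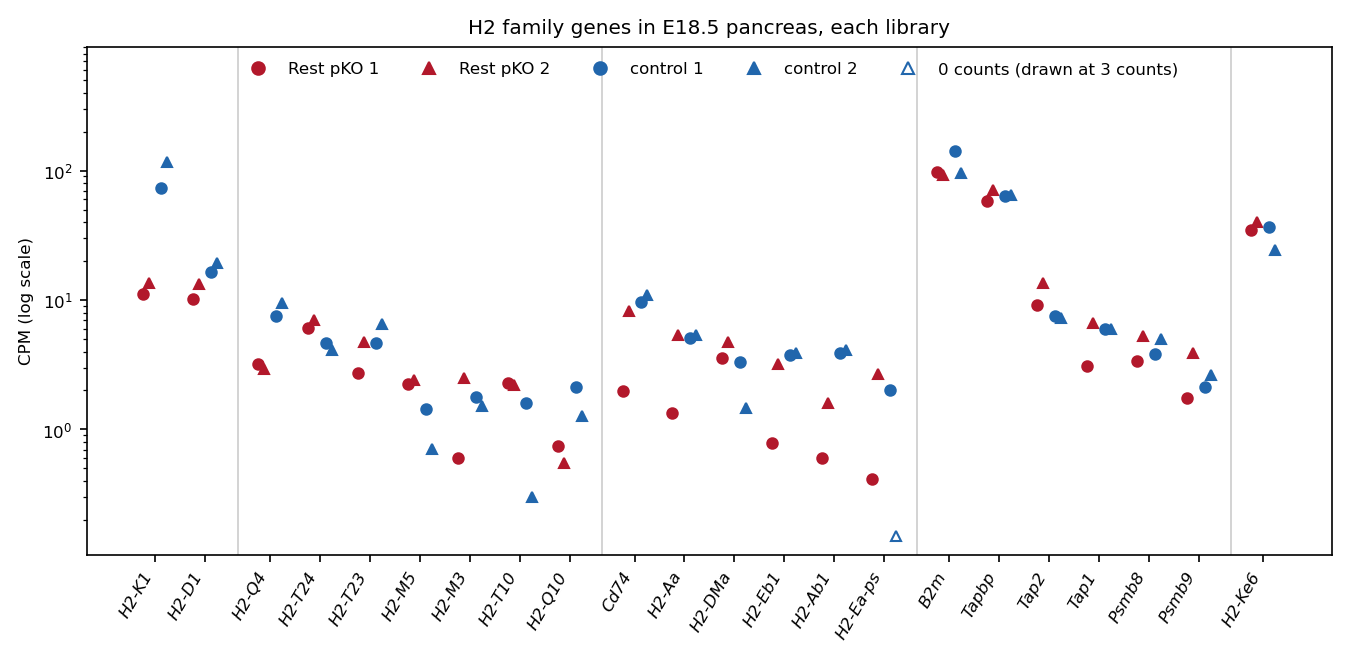
CPM (y axis, log scale) of the 22 members with a mean of at least 1 CPM in each library, ordered from left to right as classical class I, non-classical class I, class II, light chain and loading, and *H2-Ke6*. Red marks *Rest* pKO and blue marks control; *H2-K1* shows the widest gap between genotypes, while *Cd74*, *H2-Aa*, *H2-Eb1* and *H2-Ab1* of class II are lowest in *Rest* pKO 1.

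Non-classical class I genes encode heavy chains of restricted distribution, many with particular ligands. Of these 29 genes, 17 had no count, 3 had too few to be tested and 9 were tested. Among the 9, the genotype difference ran in both directions, with 6 log2 fold changes below 0 and 3 above 0 (median −0.58). Of the 6, *H2-K2* and *H2-Q2* passed the filter on low counts through the controls alone, which favours a negative sign. The median was −0.14 without a filter. None of the 9 was called by edgeR after adjustment, and before adjustment p was under 0.05 for 3 that were lower and 1 that was higher, beside 5.61% and 3.26% of all genes tested. DESeq2 and the fit with sex as a term each called 1, *H2-Q4*, lower, beside 0.533% and 1.29% of all genes with an adjusted p in those fits. The log2 fold changes of the 3 tested genes of the Q region, next to *H2-D1*, were below 0, and those of the T and M regions had either sign.

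*H2-Q4*, at chr17:35516562-35522235 of mm9, was at 3.199 and 2.92 CPM in *Rest* pKO, against 7.56 and 9.48 CPM in control. The libraries of each genotype lay close together and the genotypes did not overlap (log2 fold change −1.48, standard error 0.28). *H2-Q10*, which encodes a secreted class I molecule made mainly by the liver, was at 0.742 and 0.547 CPM in *Rest* pKO, against 2.14 and 1.26 CPM in control (log2 fold change −1.39, standard error 0.49). *H2-Q2* was at 0.278 and 0.273 CPM in *Rest* pKO, against 1.07 and 1.01 CPM in control (log2 fold change −1.89, standard error 0.53). In each of these the *Rest* pKO values were below the control values, although *H2-Q10* and *H2-Q2* rest on low counts and *H2-Q2* passed the filter on low counts through the controls alone. Stretches of 100 bases found once in mm9 made up 88.3% of *H2-Q4*, 85.1% of *H2-Q10* and 90.3% of *H2-Q2*. More of their reads could thus be shared with copies than in *H2-K1*. *H2-Q6*, *H2-Q7*, *H2-Q8* and *H2-Q9* were at 0 in every library, where such stretches made up 79% of *H2-Q6*, 57% of *H2-Q7* and 84.8% of *H2-Q8*. The last is close to the share of *H2-Q10*, which had counts.

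*H2-T24* was at 6.12 and 7.01 CPM in *Rest* pKO, against 4.64 and 4.08 CPM in control, and both *Rest* pKO libraries were the higher ones (log2 fold change 0.59, standard error 0.27). *H2-T23*, the Qa-1 heavy chain that presents leader peptides of other class I molecules to NK cell receptors, was at 2.74 and 4.74 CPM in *Rest* pKO, against 4.64 and 6.51 CPM in control. Its genotypes overlapped (log2 fold change −0.58, standard error 0.36). *H2-T10*, annotated as a polymorphic pseudogene and known as a ligand of gamma delta T cells, was at 2.27 and 2.19 CPM in *Rest* pKO, against 1.61 and 0.303 CPM in control. Its difference (log2 fold change 1.25, standard error 0.66) rests mainly on control 2, which had 6 counts, and was 0.47 without that library.

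*H2-M5* was at 2.23 and 2.41 CPM in *Rest* pKO, against 1.43 and 0.706 CPM in control (log2 fold change 1.13, standard error 0.46). The genotypes did not overlap, and control 2 was again the lowest library. *H2-M3*, which presents N-formylated bacterial and mitochondrial peptides, was at 0.603 and 2.50 CPM in *Rest* pKO, against 1.79 and 1.51 CPM in control. Its controls lay between the *Rest* pKO libraries (log2 fold change −0.08, standard error 0.63). The pseudogene *H2-K2*, whose start lies 21.5 kb from that of *H2-K1*, was at 0.417 and 0.319 CPM in *Rest* pKO, against 0.536 and 1.36 CPM in control. *H2-K2* too passed the filter through the controls alone. The sum over all non-classical genes was 18.8 and 23.1 CPM in *Rest* pKO, against 25.6 and 26.3 CPM in control.

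Among the 7 class II genes tested, 5 (*Cd74*, *H2-Aa*, *H2-Ab1*, *H2-Eb1* and *H2-DMb1*) had their lowest value in *Rest* pKO 1, and none of the 7 was called by edgeR after adjustment. Before adjustment p was under 0.05 for 1 that was lower and 0 that were higher, beside 5.61% and 3.26% of all genes tested. DESeq2 called 0, beside 0.533% of all genes lower and 0.182% higher. With sex as a term 2 (*Cd74* and *H2-Ab1*) were called lower, beside 1.29% of all genes. *H2-DMb1* passed the filter on low counts through the controls alone. *Cd74*, the invariant chain that guides class II molecules through the cell, was at 1.99 and 8.24 CPM in *Rest* pKO, against 9.70 and 10.9 CPM in control. *Rest* pKO 2 was only slightly lower than the controls (log2 fold change −1.01, standard error 0.55). *H2-Aa*, the alpha chain of I-A, was at 1.34 and 5.33 CPM in *Rest* pKO, against 5.12 and 5.35 CPM in control. Here *Rest* pKO 2 lay between the controls (log2 fold change −0.65, standard error 0.56).

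*H2-Ab1*, the beta chain that pairs with *H2-Aa*, was at 0.603 and 1.59 CPM in *Rest* pKO, against 3.93 and 4.14 CPM in control. It was the class II gene of at least 1 CPM in which *Rest* pKO 2 also lay well below both controls (log2 fold change −1.87, standard error 0.48). *H2-Eb1*, the beta chain of I-E, was at 0.788 and 3.19 CPM in *Rest* pKO, against 3.75 and 3.88 CPM in control (log2 fold change −0.94, standard error 0.58). Without *Rest* pKO 1 the log2 fold changes were −0.32 for *Cd74*, 0.03 for *H2-Aa*, −0.26 for *H2-Eb1* and −1.33 for *H2-Ab1*. *H2-Aa* and *H2-Ab1* are the chains of a single dimer, and their genes overlap in position at chr17:34406276-34406363 of mm9. *H2-Aa* took 69.0% (95% Wilson interval 54.0 to 80.9) and 77.0% (69.7 to 83.0) of the counts of both in *Rest* pKO. In control it took 56.6% (48.6 to 64.2) and 56.4% (49.2 to 63.3), and the interval of *Rest* pKO 1 overlapped those of the controls.

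*H2-DMa*, a chain of the DM molecule that exchanges peptides on class II, ran the other way, at 3.57 and 4.74 CPM in *Rest* pKO, against 3.33 and 1.46 CPM in control. The genotypes did not overlap, *Rest* pKO 1 and control 1 lying close together (log2 fold change 0.80, standard error 0.44, and 0.32 without control 2). Its partner *H2-DMb1* had 0 and 10 counts in *Rest* pKO, against 10 and 10 counts in control, where 3 counts would be 0.139 CPM in *Rest* pKO 1. *H2-Ea-ps*, the alpha chain of I-E, carries a promoter deletion in C57BL/6 and is expressed in some other strains. It had 9 and 59 counts in *Rest* pKO, against 34 and 0 counts in control, so that its libraries differed more within each genotype than between them (log2 fold change 0.66, standard error 1.28). Whether the embryos carried different H2 alleles was not tested.

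The class II genes left were rare. *Ciita* had 1 and 3 counts in *Rest* pKO, against 7 and 15 counts in control, and was not tested. *H2-DMb2* had 1 and 0 counts in *Rest* pKO, against 5 and 4 counts in control. *H2-Oa* and *H2-Ob*, the chains of the DM inhibitor DO, had 6 to 12 counts in *Rest* pKO and 3 to 9 counts in control, and *H2-Eb2* had none. Over all 12 class II genes the sum was 9.74 and 26.9 CPM in *Rest* pKO, against 29.8 and 28.0 CPM in control. *H2-Ea-ps* and *H2-DMa* were the 2 tested class II genes with a log2 fold change above 0. Without them the sum was 5.75 and 19.5 CPM in *Rest* pKO, against 24.5 and 26.5 CPM in control. Relative to the mean of the 4 libraries, the median class II gene stood at a log2 deviation of −1.23 in *Rest* pKO 1 and 0.30 in *Rest* pKO 2, against 0.47 in control 1 and 0.43 in control 2.

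Markers of the cells that carry class II were read beside these values. Of the macrophage and pan-leukocyte markers, 15 of 18 had a negative log2 fold change and 3 a positive one (median −0.29), and none was without counts. EdgeR called 0 of them after adjustment, and before adjustment p was under 0.05 for 8 that were lower and 1 that was higher, beside 5.61% and 3.26% of all genes tested. DESeq2 called 3 lower, beside 0.533% of all genes, and 4 were called lower with sex as a term, beside 1.29% of all genes. Their sum was 425 and 552.9 CPM in *Rest* pKO, against 608.6 and 589 CPM in control, with *Rest* pKO 1 the lowest library as in class II. In 9 of the 18 markers the *Rest* pKO values were both lower than either control value, beside 21.2% of all genes tested. In 1 marker, the complement gene *C1qa*, both were higher, beside 21.5% of all genes tested. *C1qa* was at 143 and 127 CPM in *Rest* pKO, against 109.9 and 58.3 CPM in control. *Ptprc*, the CD45 antigen of leukocytes, was at 5.43 and 7.29 CPM in *Rest* pKO, against 14.9 and 22.2 CPM in control. *Ptprc* was chosen after its values were seen. All 4 tested markers of dendritic and B cells had a log2 fold change below 0 (median −0.37) with overlapping genotypes, and their list summed to 8.81 and 12.4 CPM in *Rest* pKO, against 11.1 and 18.6 CPM in control. The part of these cells in the H2 values was not tested.

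**Figure D3:**
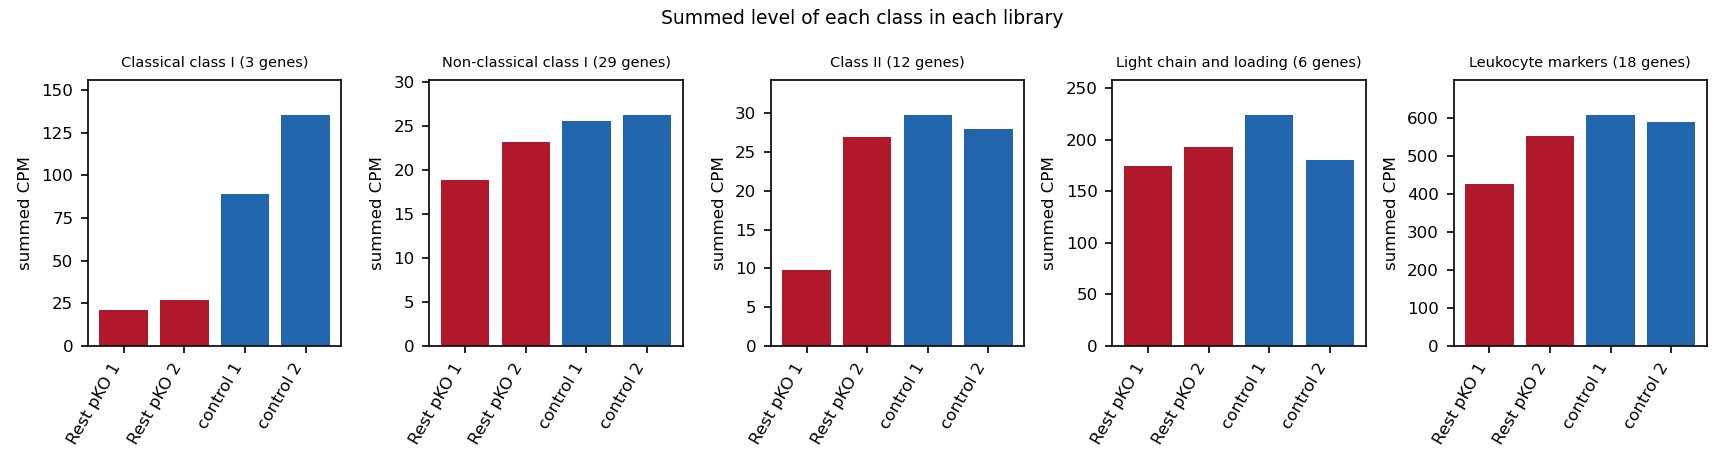
Summed CPM (y axes, each from 0) of 4 classes of members and of 18 macrophage and pan-leukocyte markers in each library (x axes), red for *Rest* pKO and blue for control. The classical class I sum is 21.3 and 26.8 CPM in *Rest* pKO and 89.2 and 135.5 CPM in control. The class II sum is 9.74 and 26.9 CPM in *Rest* pKO and 29.8 and 28.0 CPM in control.

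The light chain and loading genes showed little difference between genotypes. *B2m*, at chr2:121973422-121978819 of mm9, was at 97.9 and 92.7 CPM in *Rest* pKO, against 141 and 94.97 CPM in control. *Rest* pKO 1 lay above control 2, so the genotypes overlapped, and control 1 was the highest library (log2 fold change −0.31, standard error 0.22, and 0.00 without control 1). *Tapbp*, which encodes tapasin, the bridge between class I molecules and TAP, was at 58.6 and 70.8 CPM in *Rest* pKO, against 63.7 and 64.4 CPM in control (log2 fold change 0.02, standard error 0.18). The controls lay between the *Rest* pKO libraries.

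*Tap2*, a chain of the TAP transporter, was at 9.18 and 13.6 CPM in *Rest* pKO, against 7.56 and 7.31 CPM in control, and was the gene of this class whose genotypes did not overlap (log2 fold change 0.62, standard error 0.27). Its partner *Tap1* was at 3.11 and 6.61 CPM in *Rest* pKO, against 5.95 and 6.00 CPM in control (log2 fold change −0.30, standard error 0.38). The immunoproteasome subunit *Psmb8* was at 3.38 and 5.24 CPM in *Rest* pKO, against 3.81 and 4.99 CPM in control (log2 fold change −0.03, standard error 0.34). For *Tap1* and *Psmb8*, *Rest* pKO 1 was the lowest library and *Rest* pKO 2 the highest. The immunoproteasome subunit *Psmb9* was at 1.76 and 3.87 CPM in *Rest* pKO, against 2.14 and 2.62 CPM in control (log2 fold change 0.24, standard error 0.44), in the same order. *Tap1* and *Psmb9* overlap in position and reads of the overlap cannot be told apart. *H2-Ke6*, outside antigen presentation, was at 35.0 and 40.1 CPM in *Rest* pKO, against 36.4 and 24.5 CPM in control (log2 fold change 0.31, standard error 0.23), with overlapping genotypes.

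Of the 51 members, 19 had no count in any library, 7 had counts but were too low to be tested, and 25 entered the test over 14550 genes. EdgeR's quasi-likelihood test, adjusted over all of these genes by Benjamini-Hochberg at 0.05, called 1 member lower (*H2-K1*) and 0 higher in *Rest* pKO, where it called 0.0275% of all genes tested lower and 0% higher. Before adjustment, p was under 0.05 for 6 members that were lower and 1 that was higher, and for 5.61% of all genes on the lower and 3.26% on the higher side. DESeq2 called 2 members lower (*H2-K1* and *H2-Q4*) and 0 higher among 24 with an adjusted p, against 0.533% of all genes lower and 0.182% higher. With the sex of the embryo as a term, added after the data had been seen, edgeR called *H2-K1*, *H2-Q4*, *H2-Ab1* and *Cd74* lower and 0 members higher, against 1.29% of all genes lower and 0.412% higher. In that fit these members had log2 fold changes of −2.91, −1.47, −1.97 and −1.29, beside −2.94, −1.48, −1.87 and −1.01 without the term. The term leaves fewer residual degrees of freedom, and why more genes were called with it was not tested. Without *Rest* pKO 2, 0 members were called, but 0% of all genes were then called lower and 0.0067% higher, and *H2-K1* had a log2 fold change of −3.09. The family was put together with the level of *H2-K1* in these libraries known, so these counts are a description and nothing is read from them.

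The 25 tested members split into 16 with a negative and 9 with a positive log2 fold change (median −0.31), while all genes tested split into 7355 and 7195. In 10 of the 25 members the *Rest* pKO values were both lower than either control value, beside 21.2% of all genes tested, and in 5 of the 25 both were higher, beside 21.5% of all genes tested. The class medians were −1.77 for 2 classical class I genes, −0.58 for 9 non-classical genes, −0.94 for 7 class II genes and −0.01 for 6 light chain and loading genes. The class II median was −2.26 without *Rest* pKO 2 and −0.26 without *Rest* pKO 1, and the non-classical median was −1.18 without *Rest* pKO 2, −0.23 without *Rest* pKO 1 and −0.14 without a filter on low counts. The 25 exclude members too low to test, and 3 of the 10 (*H2-DMb1*, *H2-K2* and *H2-Q2*) passed the filter through the controls alone. *H2-K2* and *H2-Q2* also enter the non-classical median, and *H2-DMb1* enters that of class II.

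**Figure D4:**
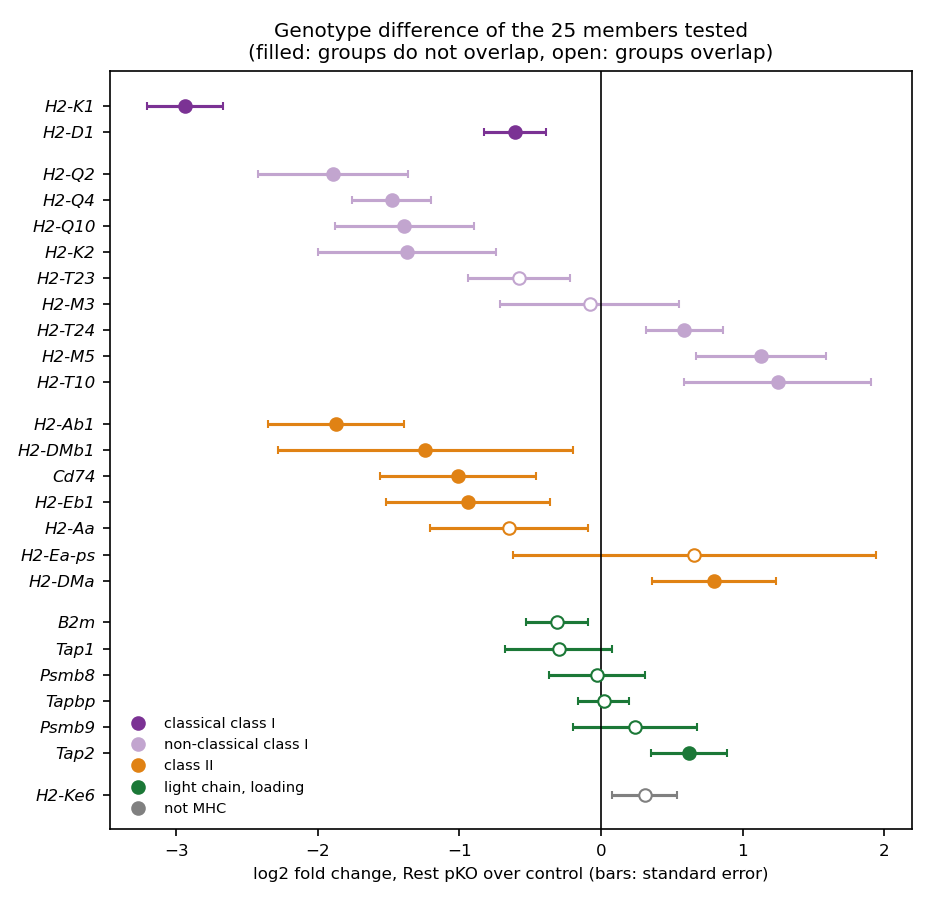
Log2 fold change, *Rest* pKO over control (x axis), of the 25 members tested (y axis), grouped and coloured by class, with standard errors as bars. Filled points mark genes whose genotypes do not overlap, 10 below 0 and 5 above, and *H2-K1* lies farthest from 0 at −2.94.

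Nearly all members with a known position, 44 of 47, lie on chromosome 17, which allowed them to be compared with their neighbours. Between chr17:34052844 and chr17:37620497 of mm9, a span of 3.57 Mb that holds the H2 genes, 113 genes were tested. The 90 that are no members had 53 log2 fold changes above 0 and 37 below 0 (median 0.08), and the 23 members had 9 above and 14 below (median −0.30). Of the genes that are no members, 16 (17.8%) had *Rest* pKO values that were both lower than either control value and 26 (28.9%) had values that were both higher, beside the 21.2% and 21.5% of all genes tested. Within 100 kb of the start of *H2-K1*, 10 further genes had 6 values above 0 and 4 below 0. The nearest tested gene on one side, *Ring1*, 24.3 kb away, was at 15.2 and 16.3 CPM in *Rest* pKO, against 14.8 and 16.7 CPM in control (log2 fold change −0.00, standard error 0.19). *Rps18*, a ribosomal protein gene 44.3 kb away on the other side and chosen after its values were seen, was at 8.53 and 6.83 CPM in *Rest* pKO, against 78.8 and 151.5 CPM in control (log2 fold change −3.91, standard error 0.35). *Rps18* was the other gene of the region that passed the edgeR threshold. *Vps52*, which overlaps *Rps18* in position and reaches nearer to *H2-K1*, was higher in *Rest* pKO. It was at 44.33 and 47.65 CPM, against 34.29 and 33.24 CPM in control (log2 fold change 0.45, standard error 0.17).

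**Figure D5:**
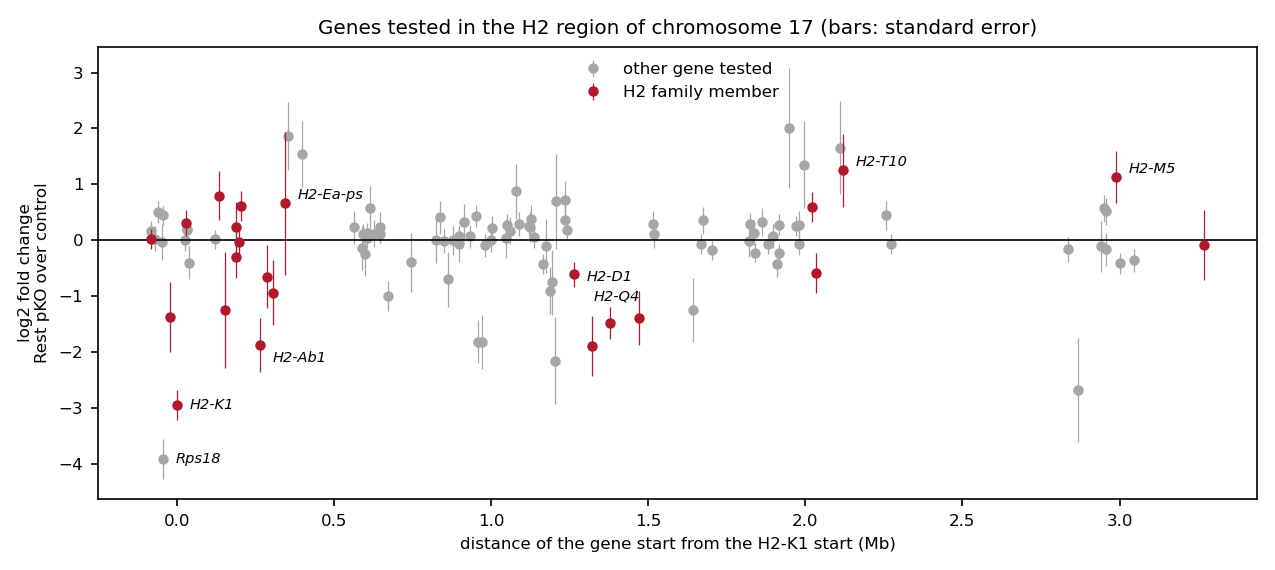
Log2 fold change, *Rest* pKO over control (y axis, bars give the standard error), of the 113 tested genes of the H2 region by the distance of the gene start from the *H2-K1* start (x axis, Mb). Red points are H2 members and grey points other genes; *H2-K1* (−2.94) and *Rps18* (−3.91) lie far below their near neighbour *Ring1* (−0.00).

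Genes that act with the H2 family were read from lists. Of 8 other peptide loading genes, 4 were above 0 and 4 below 0 (median 0.06). In 1 of the 8 the *Rest* pKO values were both lower than either control value, beside 21.2% of all genes tested. *Calr*, the chaperone calreticulin of the loading complex, was at 909.7 and 865 CPM in *Rest* pKO, against 998 and 829 CPM in control. Of 13 regulators of MHC transcription, 5 were above 0 and 8 below 0 (median −0.13). In 3 of the 13 the *Rest* pKO values were both lower than either control value and in 2 both were higher. *Rela* and *Nfkb1*, NF-kappa B factors, had log2 fold changes of 0.04 and −0.09 (standard errors 0.19 and 0.17). Of 23 interferon-stimulated genes, 4 were above 0 and 19 below 0 (median −0.32), with genotypes that did not overlap in 10, 9 of them lower in *Rest* pKO and 1 higher, beside 21.2% and 21.5% of all genes tested. Their sum was 176 and 243.5 CPM in *Rest* pKO, against 244 and 262 CPM in control, so that *Rest* pKO 1 was again the lowest library. None of the genes in these 3 lists passed the adjusted threshold in edgeR or DESeq2, and before adjustment p was under 0.05 in edgeR for 1 other loading gene, 0 regulators and 5 interferon-stimulated genes, all of them lower, beside 5.61% of all genes. With sex as a term, 1 interferon-stimulated gene was called lower, beside 1.29% of all genes.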

How the data were processed

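Whole pancreas from E18.5 *Rest* pKO and control embryos was profiled in 4 libraries, 2 per genotype, grouped by the sample labels and matching column names. The deposited table holds raw counts of each gene. To obtain these counts, the authors aligned paired 100-bp reads with STAR, kept those that mapped uniquely, and assigned them to UCSC mm9 genes with featureCounts (1.5 in the submitters' processing notes). The strand setting, and whether pairs or reads were counted, are not given in the sources used here, so reads of overlapping genes cannot be told apart. Unique mapping discards reads shared between near-identical H2 copies, and alleles that differ from the reference can lose reads.

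Genes passing filterByExpr were scaled by TMM, and genotype was tested with edgeR 4.0.16 in R 4.3.3, adjusted by Benjamini-Hochberg over all 14550 genes at 0.05. CPM are per TMM-scaled library size, and fold changes are *Rest* pKO over control. Standard errors were derived from the log2 fold change and its quasi-likelihood F. The labels do not say how replicates were obtained, so errors cover only the spread between these libraries. The biological coefficient of variation was 0.211, on 2 residual and 5.48 prior degrees of freedom. On simulated counts, the fit called 85.1% and 89.2% of genes set to log2 fold changes of −2 and 2. It called 25.4% and 41.4% of those set to −1 and 1, and 0.111% of unchanged genes. Most simulated differences of the smaller size thus went uncalled. Each simulated set held 200 changed genes with independent noise per gene, so these shares need not hold for these libraries. In the libraries themselves edgeR called 4 genes lower and 0 higher, and *H2-Ab1*, at a log2 fold change of −1.87, was not called. Positions and exon lengths are from an mm9 annotation (NCBI build 37) for 13434 tested genes, and promoters from RefSeq on GRCm38.p6, matched by symbol, without conversion between builds. Copies were sought by exact matching of 100-base stretches of exons to the mm9 genome.

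Members of at least 1 CPM are given in every library and the others by counts or range. From other lists, up to 4 genes of highest CPM may be named. Members, lists and motifs were chosen with earlier results of these data known. Alternatives were DESeq2 size factors, TMM without the 10 most abundant genes, no filter, a filter of 1 CPM in 2 libraries, DESeq2 1.42.0 (adjusted p-values left empty stayed empty), limma-voom (limma 3.58.1), a replicate block, and the omission of each library in turn. Sex as a term, read from sex-linked counts, was added after the data had been seen. Each genotype held 1 library with female and 1 with male counts of these genes.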

Additional observations from a re-analysis of the deposited data

How the results depend on the processing

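The count of members called lower, 1 with edgeR, was 2 with DESeq2, 4 with sex as a term and 0 to 2 when a library was left out (0 without *Rest* pKO replicate 2, and 2 without control replicate 1, *H2-K1* and *H2-Q4*). The count called higher, 0, was 0 to 2 when a library was left out, *H2-T10* and *H2-Ea-ps* passing without control replicate 1. Over all genes tested, 4 lower and 0 higher calls became 76 and 26 with DESeq2 and 187 and 60 with sex as a term, and ranged from 0 to 455 lower and from 1 to 59 higher when a library was left out.

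The median log2 fold change of non-classical class I genes, −0.58, was −0.14 without a filter, −0.33 with at least 1 CPM in 2 libraries and −0.21 with DESeq2. Leaving out a library gave −1.18 to −0.23 for non-classical class I, −2.26 to −0.26 for class II, −0.32 to 0.20 for peptide loading and −1.98 to −1.52 for classical class I genes. The log2 fold change of *H2-K1* ranged from −3.24 to −2.57 when a library was left out. Of 22 members of at least 1 CPM, none changed sign under the 8 settings that kept all libraries, and 7 did when a library was left out (*H2-Aa*, *H2-Ea-ps*, *H2-M3*, *Psmb8*, *Psmb9*, *Tap1* and *Tapbp*). A library left alone in its genotype was assumed to vary like the other genotype. Calls made with a library left out rest on that assumption, so their counts are a description and nothing is read from them. Without control replicate 1, the control left had 0 counts of *H2-Ea-ps* and 6 counts of *H2-T10*. Their log2 fold changes were then 8.03 and 2.85, beside 0.66 and 1.25 with all libraries. The cause of the changes between settings was not tested.

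Same-numbered libraries deviated together only weakly (correlation 0.0652), so the numbers were not taken to pair them. With the replicate block, 1 member was called lower and 0 higher, and 4 genes lower and 0 higher over all genes, as without it. With 2 libraries per genotype, depth limits the genes of a few counts, such as *Ciita* and *H2-DMb2*.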

Other observations

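Control 2 stood apart from the other libraries in a stretch of the T region around *H2-T10*, in genes chosen after their values were seen. *Gm8801* was at 5.01 and 7.15 CPM in *Rest* pKO, against 3.095 and 0 CPM in control. *A930015D03Rik* was at 1.81 and 2.14 CPM in *Rest* pKO, against 1.43 and 0.151 CPM in control. *C920025E04Rik*, which lies next to *H2-T10*, was at 1.53 and 2.64 CPM in *Rest* pKO, against 1.25 and 0.101 CPM in control. Like *H2-T10*, these genes were much lower in control 2 than in control 1, and their starts lie 1946.9 to 2121.1 kb from that of *H2-K1*. *H2-T24* and *H2-T23*, which lie within this stretch, did not share the pattern, with 4.64 and 4.08 CPM and with 4.64 and 6.51 CPM in control 1 and control 2. *H2-Ea-ps*, far from this stretch, was also at 0 in control 2. Whether this library differs from the others in its H2 alleles was not tested.

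Genes of other pancreatic cells, read beside the H2 values, ran in several directions. All 10 endocrine markers had a log2 fold change above 0 (median 0.94), as had 7 of 8 endothelial markers (median 0.31) and 11 of 12 acinar markers (median 0.27), beside 7195 of 14550 genes tested. Both *Rest* pKO values were higher than either control value in 9 endocrine, 6 endothelial and 3 acinar markers, beside 21.5% of all genes tested. In 1 acinar marker both were lower, beside 21.2%. EdgeR called 0 of these markers. DESeq2 called 6 endocrine markers higher and 0 endothelial or acinar markers, beside 0.182% of all genes. Of 8 mesenchyme markers, 7 were below 0 (median −0.43), and of 7 duct markers 4 were below 0 (median −0.02). Both *Rest* pKO values were lower than either control value in 5 mesenchyme markers, and both were higher in 2 duct markers. The mesenchyme sum was lowest in *Rest* pKO 1, at 4592 CPM, beside 7205 CPM in *Rest* pKO 2 and 8675 and 7748 CPM in control, the order also seen in class II. The part of these cells in the H2 values was not tested.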
